A study of Mus musculus with 2 samples.

Results

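T cells of colitis-associated tumors were the 5737 cells that the deposited annotation names T cells, of 38883 annotated cells in all, and they are described here gene by gene beside the 10 other annotated cell types. The study asked what loss of the microRNA gene Mir34a in myeloid cells does to colitis-associated colon tumors (CACs) of mice and to the cells around them. Tumors were dissociated, dead cells were removed and the rest was profiled by droplet single-cell RNA sequencing with 10x Genomics 3′ chemistry, in which each captured mRNA molecule is counted once as a unique molecular identifier (UMI). Both groups carried floxed Mir34a alleles. By its label the Mir34a_F/F group kept Mir34a, and the Mir34a_Mye_KO group also carried LysM-Cre, a recombinase read from the lysozyme 2 locus that deletes floxed DNA in macrophages, neutrophils and other myeloid cells. T cells are not known to use that locus, so they were not the intended target of the deletion in either group. All mice were 6 to 10 weeks old when injections of azoxymethane (AOM), a colon carcinogen, began, at 10 mg/kg. They also received 3 cycles of dextran sodium sulfate (DSS), which injures the colon lining. AOM was given before the first and second cycle. Each DSS cycle lasted 5 days, at 2.5% in the first and second cycle and 2% in the third. Mice were sacrificed on day 110, and 6 to 8 CACs of 3 mice were pooled into 1 library per genotype, for which 30000 cells were loaded. With 1 library per genotype no difference between genotypes could be tested, and every difference below is one between the library labelled Mir34a_F/F, with 3088 T cells, and the library labelled Mir34a_Mye_KO, with 2649.

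T cells recognize peptide or lipid antigens through the T-cell receptor, a pair of variable chains, either alpha with beta or gamma with delta, that signals through the CD3 and zeta chains. Cells with CD4 steer other immune cells by cytokines, cells with CD8 kill, and regulatory T cells with the transcription factor FOXP3 restrain both. In the inflamed colon IL-17A, IL-17F and IL-22 from T cells act on the epithelium.

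The sequences the results turn on are given first. Mature miR-34a-5p, the product of the deleted gene, is shown with its seed in capitals, bases 2 to 8, because genes known as its targets were followed in T cells. It lies at chr4:150068473-150068494 on the plus strand (RefSeq, GRCm38.p6).
miR-34a-5p: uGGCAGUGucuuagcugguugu

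The promoters of Cd3g and Cd3d are shown because these genes define the cells. They lie next to each other on chromosome 9 and are read away from each other. Each run is the 250 bases before the RefSeq transcript start on the gene's own strand (GRCm38.p6), chr9:44980432-44980681 on the minus strand and chr9:44981536-44981785 on the plus strand. Capitals mark CACCTG on either strand, the E-box bound by E proteins, which drive CD3 genes in developing T cells.
Cd3g: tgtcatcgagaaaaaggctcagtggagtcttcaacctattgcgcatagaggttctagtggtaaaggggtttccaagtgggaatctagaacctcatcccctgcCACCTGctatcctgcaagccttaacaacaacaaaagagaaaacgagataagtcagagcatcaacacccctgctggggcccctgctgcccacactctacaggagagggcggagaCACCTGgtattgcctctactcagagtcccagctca
Cd3d: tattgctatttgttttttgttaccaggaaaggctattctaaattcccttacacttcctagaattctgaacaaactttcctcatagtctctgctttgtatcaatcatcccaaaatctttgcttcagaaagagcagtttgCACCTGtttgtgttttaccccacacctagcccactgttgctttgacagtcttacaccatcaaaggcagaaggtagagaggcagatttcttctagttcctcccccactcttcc

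CACCTG occurred 2 times before Cd3g, 148 and 35 bases upstream, and 1 time before Cd3d, 112 bases upstream. Of 32851 RefSeq promoters of the same length, 17.2% held it. None was found in the same window of Cd3e.

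The promoters of Il17a and Il17f are shown because these neighbours on chromosome 1 differed between the libraries in opposite directions. They are chr1:20730655-20730904 on the plus strand and chr1:20784271-20784520 on the minus strand. Capitals mark AGGTCA, a half-site of nuclear receptors, and TGTGGT, bound by RUNX factors, on either strand.
Il17a: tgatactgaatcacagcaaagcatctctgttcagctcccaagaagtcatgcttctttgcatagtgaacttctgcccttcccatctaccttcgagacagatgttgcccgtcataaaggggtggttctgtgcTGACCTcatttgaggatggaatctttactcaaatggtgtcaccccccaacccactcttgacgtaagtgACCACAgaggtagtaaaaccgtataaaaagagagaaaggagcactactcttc
Il17f: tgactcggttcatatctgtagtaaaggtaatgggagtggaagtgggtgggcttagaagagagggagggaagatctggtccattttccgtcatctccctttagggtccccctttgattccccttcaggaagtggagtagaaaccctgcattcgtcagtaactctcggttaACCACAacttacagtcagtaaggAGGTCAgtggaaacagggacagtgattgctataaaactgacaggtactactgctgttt

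AGGTCA lay 120 bases upstream of the Il17a start and 58 bases upstream of the Il17f start, and TGTGGT lay 52 and 81 bases upstream. Both promoters held both motifs. Each motif was found in 14.0% of the 32851 promoters, and a match describes letters only.

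Taken by their names alone, the Cre and Mir34a features of the table went against the labels, over whole libraries and in macrophages, a target of the deletion. Over whole libraries, of 147109016 and 193133086 UMIs, the Cre feature gave 537 UMIs in the library labelled Mir34a_F/F and 233 in the library labelled Mir34a_Mye_KO, and the primary Mir34a transcript gave 359 and 737. In macrophages, of 19470961 and 33225004 UMIs, the Cre feature gave 451 and 172 and the Mir34a transcript 133 and 462. Lyz2, the gene at whose locus Cre is inserted, gave 4388 and 1615 over whole libraries and 3892 and 1379 in macrophages. It was lower in the same library as the Cre feature and is not counted among the features that went against the labels. The Cre feature is named crenlslyz2, after Cre and Lyz2 both, and whether Lyz2 reads enter it was not tested. The sequence behind the Cre and Mir34a features, and so whether the latter covers the deleted part, was not given in the sources used here, and directions below follow the labels. The libraries also differed in depth. T cells of the library labelled Mir34a_F/F had a median of 3548 UMIs (range 551 to 28594) and those of the library labelled Mir34a_Mye_KO 8043 (566 to 35345), a ratio of 2.27, and all 11 cell types were deeper in the second library. The median share of mitochondrial UMIs in T cells was 1.90% and 3.30%, again higher in the second library in 11 of 11 types. The stated filter of less than 25% mitochondrial RNA was not met by 51 and 71 T cells. Across the libraries 96 barcodes occurred in both, carried by 21 and 18 T cells, and leaving those cells out moved the counts of genes past 1.5-fold, given below, by 1 gene each. Depth, mitochondrial share and genotype cannot be told apart here.

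RNA of other cell types was present in the T cells and moved between libraries. The summed level of 5 epithelial markers, as mean UMIs per 10000, was 25.7 in the library labelled Mir34a_F/F and 13.9 in the other, led by the keratin gene Krt8, with 5 of 5 lower. In epithelial cells the same sum was 70.8 and 48.2, so T cells carried 36.3% and 29.0% of that level. The 5 neutrophil markers summed to 9.48 and 5.21, also with 5 of 5 lower, at 0.598% and 0.502% of the level in neutrophils. The 4 plasma cell genes, among them Igkc and Jchain of secreted antibody, summed to 30.2 and 60.1, with 4 of 4 higher. Thus epithelial and neutrophil genes were lower, and plasma cell genes higher, in T cells of the library labelled Mir34a_Mye_KO. Among the remaining lists, erythroid genes summed to 2.25 and 0.0946, macrophage genes to 1.98 and 1.80, mast cell genes to 7.49 and 8.14 and endothelial genes, nearly all Pecam1 (1.47 and 1.85), to 1.504 and 1.89. B-cell, dendritic cell, fibroblast and basophil markers each stayed between 0.0467 and 0.220 in sum, and no marker of the 11 lists was at 0 in either library. The part of such RNA in any ratio below was not tested.

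The defining T-cell genes marked the annotated cells clearly. Cd3e, a CD3 chain, stood at 3.86 UMIs per 10000 (95% interval 3.75 to 3.98, here and throughout for counting error only) and 2.79 (2.72 to 2.86) in T cells of the libraries labelled Mir34a_F/F and Mir34a_Mye_KO, in this order as in all pairs below. Cd3g stood at 2.87 and 3.23, Cd3d at 3.44 and 2.97 and Trac, the constant part of the alpha chain, at 2.23 and 2.28. The 4 markers together reached 12.4 and 11.3 in T cells and 0.198 to 0.703 in the other types, except 1.44 in the 60 fibroblasts of the library labelled Mir34a_Mye_KO. Fibroblasts were the next type in both libraries, and T cells exceeded them 17.6-fold and 7.83-fold. A UMI of any of the 4 markers was missing in 677 T cells (21.9%) and 495 T cells (18.7%), so in those cells the label rests on other genes. Between the libraries Cd3e was lower in the library labelled Mir34a_Mye_KO by a log2 ratio of -0.47 (-0.53 to -0.41) and Cd3g higher by 0.17 (0.11 to 0.23), while the interval of Trac at 0.04 (-0.04 to 0.11) held 0.

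**Figure D1:**
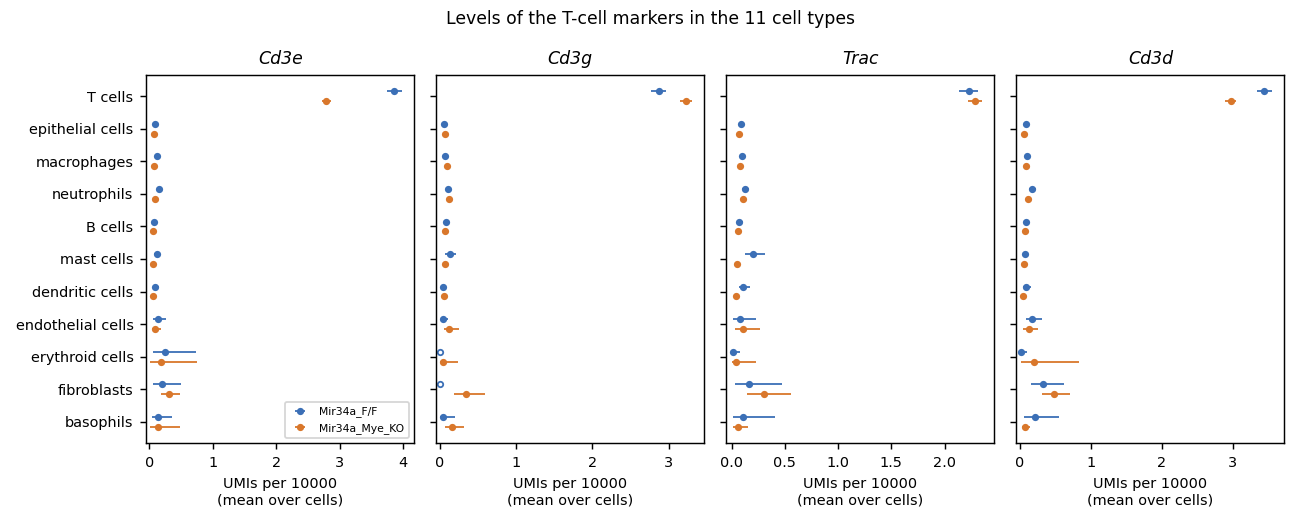
Mean level (UMIs per 10000, linear axis) of the 4 T-cell markers in the 11 annotated cell types, 1 point per library with the 95% interval for counting error, open where no UMI was counted. In all 4 panels both T-cell points lie far to the right of every other type, with Cd3e at 3.86 and 2.79.

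T cells made up 15.2% (14.7 to 15.7) of the annotated cells in the library labelled Mir34a_F/F and 14.3% (13.8 to 14.8) in the other, a difference of -0.939 percentage points (-1.64 to -0.234). The direction was not fixed: among cells that met the stated filter the difference was 0.830 points (-0.00288 to 1.66), and among non-epithelial cells it was -5.08 points (-6.47 to -3.68). The interval also held 0 when only T cells with a marker UMI were counted (-0.271 points, -0.911 to 0.369), in core T cells, defined below (-0.270, -0.882 to 0.343), and with the stricter cell filter (-0.679, -1.72 to 0.358). In 1 library per genotype a lower share of a cell type and a higher share of the others are the same measurement.

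Genes of the receptor and of costimulation set T cells apart from all 10 other types. A gene was counted as leading where its level in T cells was at least 2-fold that of the highest other type in both libraries, which 195 of 12253 genes met (1.59%), and 77 were at least 4-fold (0.628%). The annotation came from these same cells, so this is a description. All 11 receptor complex genes led, 10 of them 4-fold, as did 10 of 12 coreceptor and costimulation genes, 10 of 23 T-cell transcription factors, 9 of 15 cytokines, 6 of 13 cytotoxic genes, 6 of 18 receptor signalling genes and 8 of 21 cytokine receptors. Of 14 checkpoint genes 5 led, 3 of them 4-fold. Only 2 of 14 chemokine receptors and 1 of 8 chemokine ligands led. From the residency, immediate early, heat shock, interferon, cell cycle, mitochondrial, glycolysis, semaphorin and miR-34a target lists 0 genes led.

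Leads were ranked by the smaller log2 fold of the 2 libraries, among genes detected in at least 10% of T cells of both. By this rank Trat1, an adaptor that holds the receptor at the surface, came first. It stood at 0.569 and 0.756 UMIs per 10000, with a log2 fold of 4.97 and 4.40 over the next type. Cd5, a brake on receptor signals, stood at 0.981 and 1.36 with 3.97 and 4.30, and Cd40lg, the helper ligand for B cells and myeloid cells, at 0.577 and 0.712 with 3.91 and 4.59. T cells held 87.0% and 88.0% of all Cd40lg UMIs in the libraries. The kinase gene Camk4 stood at 9.31 and 13.1 with log2 folds of 4.26 and 3.77, the chemokine receptor gene Cxcr6 at 1.09 and 1.78 with 4.27 and 3.85 and the costimulator gene Icos at 5.90 and 7.67 with 3.54 and 3.32. Themis and Cd247, both of receptor signalling, the IL-2 receptor gene Il2ra, the adaptor gene Sh2d2a and the long noncoding RNA Gm2682 were also among the 15 leading genes named. So was Tff1, a trefoil peptide gene known from gastric mucus, at 0.712 and 0.494, detected in 11.1% and 12.1% of T cells.

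Both receptor types were read in these cells. Trbc1 and Trbc2 of the beta chain stood at 2.77 and 3.21 and at 4.70 and 4.47, and Trdc of the delta chain at 0.615 and 0.536. With 3′ chemistry variable segments are seldom captured. Segments named Trav gave 263 and 378 UMIs, spread over 55 and 63 of 128 listed, in 6.96% and 11.02% of T cells. Those among them that are also named as delta segments (dv) were counted here. Of the 6 segments named Trdv, Trdv4 alone gave 94.5% (91.6 to 96.6) and 93.3% (90.6 to 95.4) of the UMIs. Of the gamma segments Trgv2 gave 65.5% (60.5 to 70.3) and 66.6% (62.5 to 70.5) and Tcrg-V6 15.3% and 12.6%. Among the Trdv and the gamma segments the main one was thus the same in both libraries. Segments of 1 family resemble each other, so single UMIs may be assigned to the wrong one.

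Lineage shares were compared after each cell was thinned to 1000 UMIs, which left 3004 and 2642 T cells. Cd4 was seen in 7.12% and 10.1% of them, a difference of 2.98 points (1.51 to 4.45), against 0.585% and 0.372% of neutrophils, a type without CD4, whose median depths were 4107 and 7330 UMIs. Without thinning the Cd4 shares were 25.4% and 43.6%. Foxp3 was seen in 6.06% and 6.59% (difference 0.527 points, -0.746 to 1.80), Cd8a in 2.10% and 1.70% (-0.394 points, -1.11 to 0.317) and Trdc in 3.70% and 3.71% (0.0142 points, -0.973 to 1.001). Of these 4 lineage genes only Cd4 had an interval off 0 after thinning. Il17a was seen in 15.8% and 16.5%, against 1.85% and 2.51% of neutrophils. Ifng, the type 1 cytokine, was seen in 1.96% and 2.99%, a difference of 1.03 points (0.209 to 1.84), and Cxcr6 in 9.75% and 14.2%, a difference of 4.40 points (2.70 to 6.10). Cd3e went the other way, with 29.8% and 22.3% thinned and 62.3% and 69.9% unthinned. Mki67, a proliferation gene, was seen in 4.89% and 4.92% of T cells beside 4.58% and 2.23% of neutrophils, and no cycling is read from it. Havcr2, or TIM-3, was seen in 5.69% and 7.04%, below its share in macrophages of 9.03% and 9.13%.

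Lineage genes were also looked for in the same cell. Of 214 and 267 thinned cells with a Cd4 UMI, 0 had a Cd8a UMI, which allows up to 1.71% and 1.37% of such cells with a UMI (exact 95% limits, for detection at this depth and not for expression), beside 2.10% and 1.70% of all T cells. Of 182 and 174 cells with Foxp3, 4 and 6 had Il17a (2.20% and 3.45%), beside 15.8% and 16.5% of all T cells. Foxp3 and Ctla4, the inhibitory receptor that regulatory cells use, were found together in 51.6% and 63.8% of Foxp3 cells, beside 40.2% and 42.6% of all T cells with Ctla4. Il17a was found with Trdc in 9.49% and 8.51% of Il17a cells, beside 3.70% and 3.71% of all T cells with Trdc. It was found with Cd4 in 10.8% (8.12 to 13.9) and 14.0% (10.9 to 17.6), only somewhat above the 7.12% and 10.1% of all T cells with Cd4.

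Clustering of the T cells alone gave 16 clusters, of which 7 could be named by the fixed markers. Since the same genes made the clusters, the levels are a description. The Th17-like cluster (1056 cells) was led by Ccl20, a chemokine gene, at 2.62 UMIs per 10000 against 0.219 in the other T cells, with Il17f at 5.18 against 0.560 and Il17a at 21.1 against 3.80. The regulatory T-like cluster (981 cells) was led by Foxp3 at 3.38 against 0.268, Klrg1 at 2.28 against 0.171 and Tnfrsf4, or OX40, at 7.78 against 1.19. The naive T-like cluster (669 cells) carried S1pr1, the exit receptor, at 2.25 against 0.447 and Lef1 at 4.55 against 1.06.

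The NK-like cluster (543 cells) was led by Xcl1 at 9.58 against 0.130, Cd7 at 5.44 against 0.148 and the granzyme gene Gzmc at 2.98 against 0.1003. It held Cd3e at 3.19 and Cd8a at 0.929 as well, beside Klrd1, a killer receptor gene of the Klr family, at 5.15. These are means of the cluster, and whether single cells carried both was not tested. The gamma-delta T-like cluster (431 cells) had Trdc at 5.49 against 0.179, Zbtb16 at 6.73 against 0.192 and Trdv4 at 2.02 against 0.0438. In the CD8 T-like cluster (210 cells) Gzmk stood at 2.70 against 0.0424, Cd8b1 at 2.87 against 0.0557 and Ccl5 at 88.5 against 3.85. A cycling-like cluster of 133 cells was led by histone genes and Pclaf, a replication factor.

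The 9 further clusters stayed unnamed. The largest held 825 cells with a median of 1912 UMIs and Cd3e at 0.434, and clusters of 439 and 201 cells had median mitochondrial shares of 9.99% and 22.3%. A cluster of 46 cells was led by B-cell genes (Bank1, Ebf1, Cd79a). Another of 45 cells had Gata3 at 9.29 and Cd3e at 0.141 and was led by Il17rb, Il5 and Calca, genes known from group 2 innate lymphoid cells, and it gave 80.0% and 90.7% of the Il5 UMIs of the annotated T cells. Leaving out the 7 clusters with low Cd3e, a high mitochondrial share or genes of another type left 2181 and 1944 cells, called core T cells below, in which the epithelial sum was 19.7 and 10.3.

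**Figure D2:**
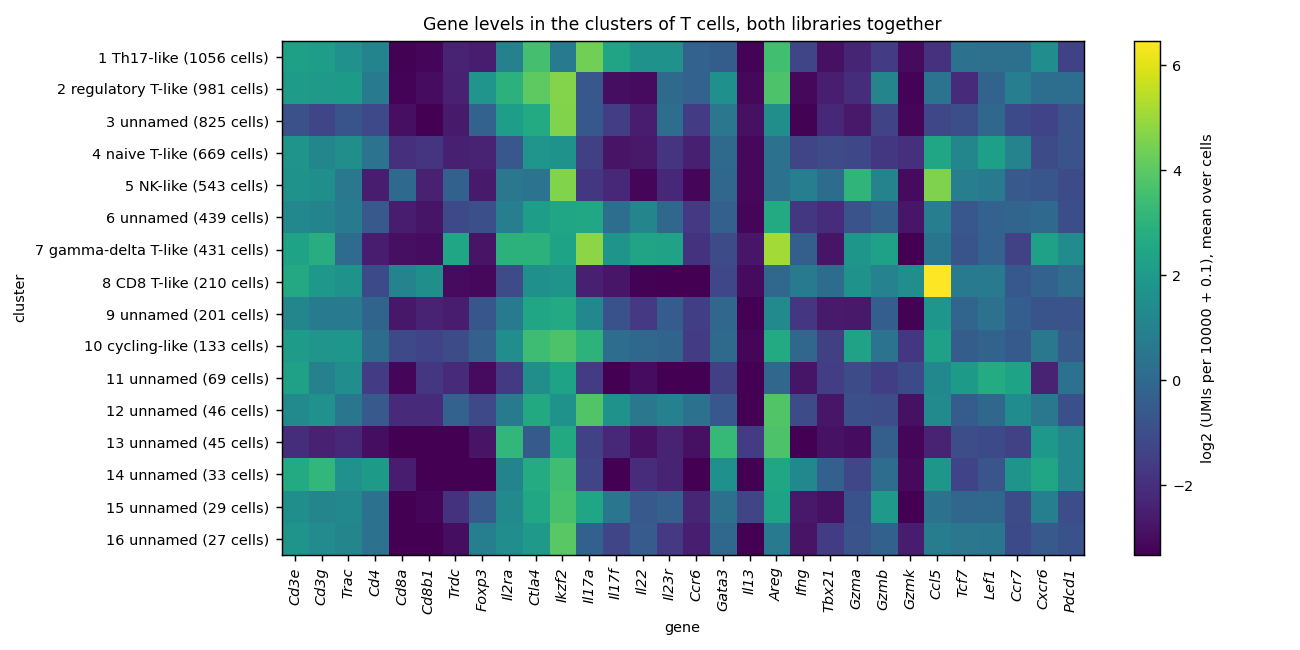
Heat map of mean gene levels (log2 of UMIs per 10000 plus 0.1, color scale) in the 16 clusters of T cells, both libraries together, with cells per cluster in the row names. Il17a is brightest in the Th17-like and gamma-delta T-like rows, Foxp3 in the regulatory T-like row and Ccl5, at 88.5 UMIs per 10000, in the CD8 T-like row.

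Of the genes past 1.5-fold, more were lower than higher in the library labelled Mir34a_Mye_KO. Of 9231 genes with at least 0.1 UMIs per 10000 in T cells of either library, 150 (1.62%) were at least 1.5-fold higher and 819 (8.87%) at least 1.5-fold lower, with a median log2 ratio of -0.09. A mean over T cells mixes the level per cell with the share of each kind of T cell, and these cannot be told apart in it. Regulatory T-like cells made up 14.9% and 19.7% of T cells, NK-like 8.55% and 10.5% and gamma-delta T-like 7.06% and 8.04%. CD8 T-like cells made up 3.34% and 4.04% and cycling-like cells 2.14% and 2.53%. Th17-like cells, at 19.3% and 17.4%, and naive T-like cells, at 13.1% and 9.93%, went the other way. The part of these shares in any ratio was not tested. The split moved with the scale: 15.5% of the genes past the fold were higher, but 31.9% when immunoglobulin, mitochondrial and ribosomal RNA-like genes were left out of the totals (265 higher, 567 lower). Among genes with a level of at least 0.5 it was 26.3% (85 higher, 238 lower), and their median log2 ratio was 0.03, on the other side of 0. With a pseudocount of 0.1 the counts were 80 higher and 242 lower, and after thinning 316 and 1090. Of the 819 lower genes 284, and of the 150 higher genes 17, met the level minimum only in the library where they were higher.

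Most of these ratios had the same sign in the other cell types. Of the 96 higher genes that could be measured in at least 5 other types, 91 had a median ratio above 0 there, and of 758 lower genes 737 had one below 0. That median was itself past 1.5-fold the same way for 38 of the 96 and 300 of the 758. In it, small types such as basophils (48 and 40 cells) weighed as much as large ones. Over all genes measured in T cells the middle of the other-type medians was -0.15, so values below 0 were common there. Among genes detected in at least 25% of T cells and at a level of at least 0.5, each in at least 1 library, those with the largest ratios had the same sign there. Igkc stood at 14.0 and 29.2 (log2 ratio 1.05, 1.02 to 1.09), with a median of 1.38 in the other types, and Jchain at 1.93 and 4.68 (1.28, with 1.68 elsewhere). The mitochondrial gene mt-Atp6 stood at 56.0 and 107 (0.93, with 0.99 elsewhere). Iglc2, Ighg1, mt-Nd2, mt-Nd3, Lars2, Gm15564 and Ntng2 were the other named higher genes, and each was higher in the median of the other types too. On the lower side the stress gene Nupr1 stood at 1.95 and 0.804 (-1.28, with -1.06 elsewhere) and the metallothionein gene Mt1 at 2.98 and 1.33 (-1.16, with -0.85). Spp1, Fxyd3, Snhg9, Gm11808, Gm41609, 1110038B12Rik and Gm47283 were lower likewise. Fxyd3 is an epithelial gene, and epithelial markers in T cells summed to 25.7 and 13.9.

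Other ratios in T cells stood apart from those of the other types. Cd4 was only slightly higher in T cells, at 0.895 and 1.07 (log2 ratio 0.26, 0.15 to 0.37), but had a median ratio of 1.81 in the 5 other types where it could be measured. Its highest level in another type was 0.144 (macrophages) and 0.264 (erythroid cells), near the minimum of 0.1. At such levels a type with a ratio of 1.81 met that minimum only in the library labelled Mir34a_Mye_KO. Such a type had to differ to be counted. Ubash3a, which encodes a suppressor of receptor signals, stood at 1.02 and 0.951 (-0.10, -0.22 to 0.03) with a median of -1.09 in 9 other types. Nt5e, or CD73, which makes adenosine, stood at 2.68 and 3.62 (0.44, 0.37 to 0.50) with -0.37 in 10 other types, and Il18rap, a chain of the IL-18 receptor, at 0.978 and 1.55 (0.67, 0.55 to 0.78) with -0.15 in 5. Lower in T cells than elsewhere were Slpi (-0.59 against 0.18), Blnk (-0.42 against 0.27) and Trib1 (-0.59 against 0.04). These differences between cell types were not tested.

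**Figure D3:**
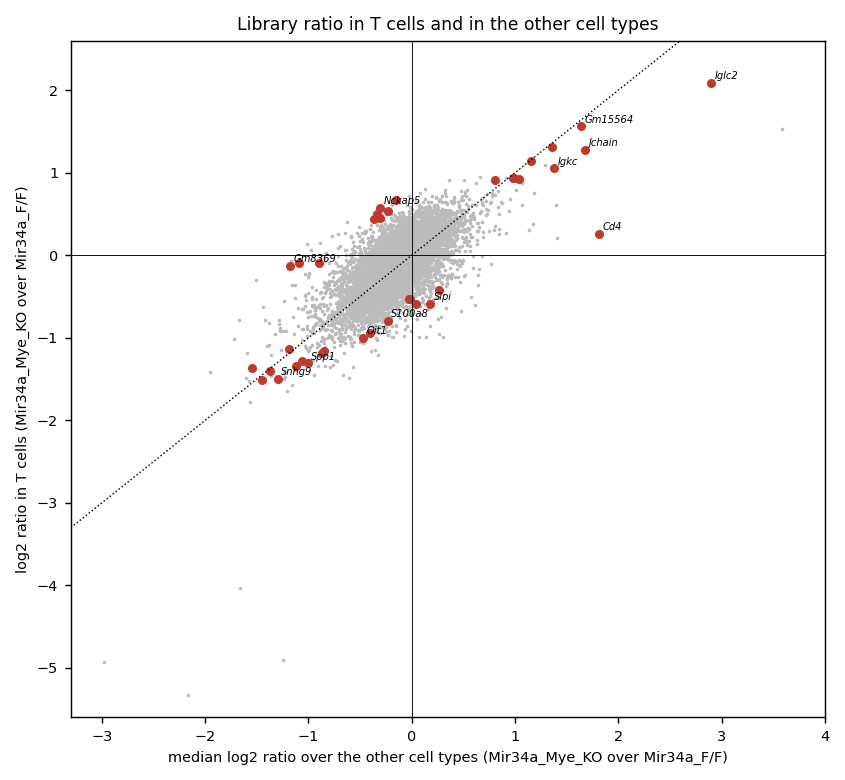
Each point is a gene measured in T cells and at least 5 other types. The horizontal axis is the median log2 ratio over the other types, the vertical axis the log2 ratio in T cells (Mir34a_Mye_KO over Mir34a_F/F), red points are the named genes and the dotted line marks equality. Most points follow the dotted line. Cd4 (0.26 against 1.81) lies far below it, but its levels in the other types were near the level minimum. Another type with a ratio of 1.81 met that minimum only in the library labelled Mir34a_Mye_KO and had to differ to be counted.

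Genes of receptor signalling leaned higher in the library labelled Mir34a_Mye_KO. Among the 11 receptor complex genes 0 passed 1.5-fold and the median log2 ratio was 0.04, a value that turned to -0.05 after thinning and to -0.02 in core T cells. Among 18 proximal signalling genes 15 had a ratio above 0, with a median of 0.42 beside -0.09 over all genes and 0.29 for the same list in the other types, and 2 passed the fold upward, beside 1.62% of all genes. These were the adaptor gene Skap1 at 5.46 and 8.78 (0.69, 0.64 to 0.73) and the kinase gene Prkcq at 0.711 and 1.08 (0.61, 0.47 to 0.74). Of 12 coreceptor and costimulation genes 10 had a ratio above 0, beside 3703 of all 9231 genes, and 0 passed the fold, near the share of all genes, with a median of 0.26. Cd28 stood at 2.65 and 3.65 (0.46), and Tnfrsf18, or GITR, at 1.47 and 1.47.

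Transcription factor genes had a median ratio of 0.26 over 22 measured members, 3 past the fold upward and 1 downward, beside 1.62% and 8.87% of all genes. Zbtb16, or PLZF, which innate-like T cells use, stood at 0.462 and 0.939 (1.02, 0.87 to 1.18), Ikzf2, or Helios, at 9.98 and 15.4 (0.63, 0.59 to 0.67) and Tbx21, or T-bet of type 1 cells, at 0.197 and 0.297 (0.59, 0.34 to 0.84). Id3, an inhibitor of E proteins, stood at 0.912 and 0.577 (-0.66, -0.81 to -0.51). Only 4.80% and 7.56% of the Id3 UMIs lay in T cells. These ranked 9 and 8 among the annotated types in its level, with fibroblasts highest at 3.29 and 3.06. Epithelial markers in T cells were lower in the same library as Id3, and the part of RNA from other types in its ratio was not tested. Foxp3 stood at 0.737 and 0.874 (0.25, 0.11 to 0.38) and Gata3 at 1.10 and 1.43 (0.37). Rora and Satb1, chromatin and lineage regulators read widely in T cells, stood at 11.6 and 15.8 and at 7.04 and 10.0, both short of the fold.

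Cytokine genes had ratios on both sides of 0. Il17a, whose product calls in neutrophils through the epithelium, stood at 6.58 and 7.43 UMIs per 10000 (log2 ratio 0.17, 0.14 to 0.21), while Il17f stood at 1.68 and 1.09 (-0.62, -0.71 to -0.53). Il22, which drives epithelial repair, stood at 1.39 and 0.965 (-0.52, -0.61 to -0.44). T cells held 78.2% and 86.1% of all Il17a UMIs, 79.0% and 85.3% of Il17f and 84.1% and 88.1% of Il22, so most of their UMIs lay in T cells. Tnf stood at 0.820 and 0.526 (-0.64, -0.79 to -0.49), with 5.66% and 5.38% of its UMIs in T cells. Fasl, a death ligand, stood at 0.137 and 0.227 (0.73) and Tnfsf11, or RANKL, at 1.29 and 1.96 (0.60). Thus 2 of 14 measured cytokine genes were past the fold in each direction, beside 1.62% upward and 8.87% downward of all genes, with a median of 0.24. Ifng stood at 0.353 and 0.510 (0.53, 0.37 to 0.69), Tnfsf8 at 2.68 and 3.89 (0.54) and Ltb, or lymphotoxin beta, at 1.79 and 2.49 (0.48). Areg, an epidermal growth factor receptor ligand, stood at 9.44 and 7.64 (-0.31), and T cells held 26.4% and 38.4% of its UMIs.

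The divergence of the IL-17 genes was seen inside the Th17-like cluster, which gave 50.7% and 50.7% of the Il17a UMIs of T cells. There Il17a stood at 18.6 and 24.2 (0.38), Il17f at 6.19 and 3.87 (-0.68, -0.79 to -0.57) and Il22 at 3.53 and 2.56 (-0.46, -0.60 to -0.33). In the gamma-delta T-like cluster, which gave 25.3% and 27.7% of Il17a, the gene stood at 27.4 and 26.4 (-0.05) and Il17f had a log2 ratio of 0.09. The divergence was thus not seen in that cluster, and the difference between the clusters was not tested. Areg stood at 43.3 and 25.6 (-0.76, -0.82 to -0.70) in gamma-delta T-like cells.

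Within the Th17-like cluster 3 receptor genes and 1 chemokine gene, chosen after their values were seen, were followed beside the cytokines. Il23r, the receptor that maintains Th17 cells, stood at 2.27 and 4.09 (0.85, 0.71 to 0.99), Il1r1 at 1.53 and 3.13 (1.03, 0.86 to 1.21) and Cxcr6 at 1.92 and 3.73 (0.96, 0.80 to 1.12). Ccl20, the ligand of CCR6, stood at 1.80 and 3.68 (1.03, 0.88 to 1.18). The first and second were also higher in regulatory T-like cells, where Il23r stood at 0.658 and 1.18 (0.85) and Il1r1 had a ratio of 0.80. In gamma-delta T-like cells Il23r stood at 4.08 and 5.70 (0.48, 0.28 to 0.68).

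**Figure D4:**
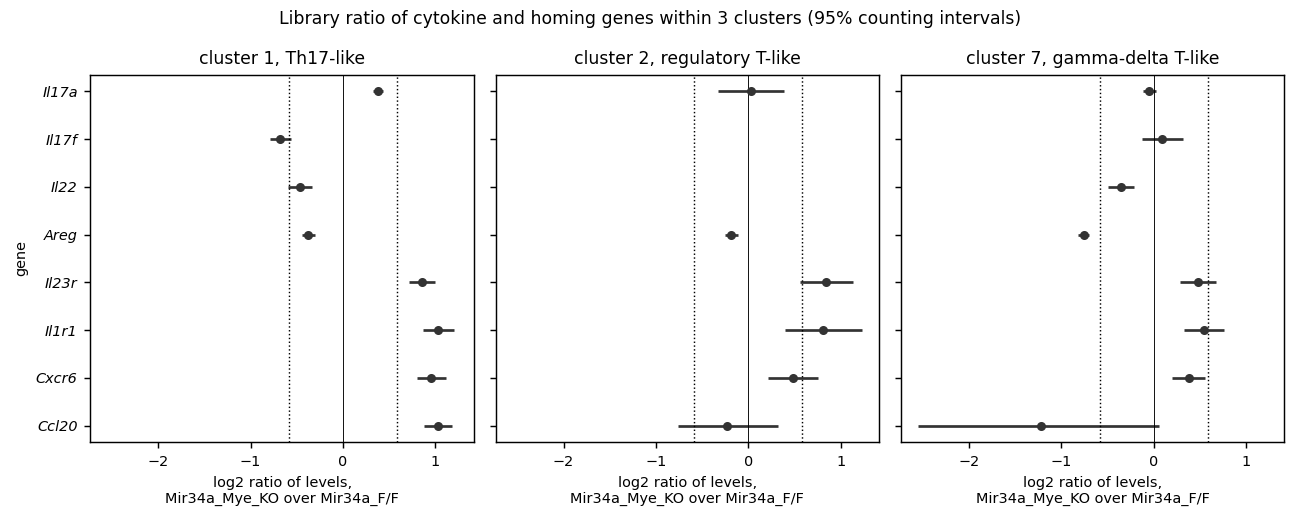
Log2 ratio of levels (Mir34a_Mye_KO over Mir34a_F/F) of cytokine and homing genes within 3 clusters of T cells, 1 point per gene with the 95% interval for counting error and the 1.5-fold threshold dotted. In the Th17-like panel Il17f (-0.68) lies left of 0 and Il17a (0.38), Il23r (0.85) and Ccl20 (1.03) lie right of it.

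Cytotoxic genes had a median ratio of 0.14 over 13 measured members, with 2 past the fold upward, beside 1.62% of all genes. They were Fasl and the perforin gene Prf1 at 0.114 and 0.178 (0.65, 0.34 to 0.96). The granzyme genes Gzma, at 1.40 and 1.49 (0.09), and Gzmb, at 1.20 and 1.26 (0.08), were close to even, as was the granule proteoglycan gene Srgn at 21.9 and 21.9. Gzmk was lower, at 0.162 and 0.114 (-0.50, -0.82 to -0.18), and 64.5% and 67.9% of its UMIs came from the CD8 T-like cluster. In that cluster Ccl5 stood at 113 and 64.6 (-0.81, -0.87 to -0.75).

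Chemokine ligand genes had a median ratio of 0.25 over 8 members. Ccl1, a ligand of CCR8, stood at 0.110 and 0.241 (1.14, 0.85 to 1.43) and Ccl3 at 0.416 and 0.649 (0.64, 0.46 to 0.83), and these 2 passed the fold, beside 1.62% of all genes. Ccl5 stood at 7.68 and 6.09 (-0.33) and Cxcl2, a chemokine gene that draws neutrophils, at 5.013 and 3.42 (-0.55), and neither passed it. T cells held 2.35% and 1.98% of the Cxcl2 UMIs, with neutrophils at 136 and 139 UMIs per 10000, and 3.01% and 3.88% of those of Ccl3, with basophils at 72.0 and 83.8. The neutrophil markers in T cells were lower in the same library as Cxcl2, and their part in its ratio was not tested.

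Receptor genes for cytokines and chemokines stood mostly higher in the library labelled Mir34a_Mye_KO. Of 22 measured cytokine receptor genes 21 had a ratio above 0, the median was 0.35 and 5 passed the fold, beside 1.62% of all genes. They were Il12rb2 of the type 1 response at 0.571 and 0.990 (0.79, 0.65 to 0.94), Il1r1 at 0.812 and 1.32 (0.70), Il23r at 1.10 and 1.76 (0.68), Il18rap, given above, and Il2ra at 2.78 and 4.24 (0.61, 0.54 to 0.67). Ifngr2 was the 1 gene below 0, at 0.694 and 0.527 (-0.40). Of 13 chemokine receptor genes 3 passed upward and 0 downward, beside 1.62% and 8.87% of all genes, with a median of 0.31 in T cells and 0.17 in the other types. Cxcr6, which holds T cells in mucosa, stood at 1.09 and 1.78 (0.71, 0.62 to 0.81), Ccr2 at 0.992 and 1.63 (0.72, 0.61 to 0.82) and Ccr9, the gut-homing receptor, at 0.220 and 0.361 (0.71, 0.50 to 0.93). Cxcr4 stood at 2.04 and 1.44 (-0.50, -0.59 to -0.42). Of 16 residency and adhesion genes the integrin genes Itga1, at 0.123 and 0.202 (0.72), and Itga4, at 2.40 and 3.70 (0.62), passed upward, beside 1.62% of all genes, and the residency marker Cd69 stood at 3.08 and 3.86 (0.33).

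Of 14 checkpoint genes 0 were past the fold in either direction, near the 1.62% and 8.87% of all genes, with a median of 0.26 in T cells and 0.21 in the other types. Ctla4 stood at 7.54 and 8.56 (0.18, 0.14 to 0.22), Pdcd1, or PD-1, at 0.760 and 0.712 (-0.09, -0.23 to 0.04) and Cd274, or PD-L1, at 0.977 and 1.22 (0.32). T cells held 69.8% and 71.3% of the Ctla4 UMIs and 79.8% and 86.8% of those of Pdcd1. Among thinned cells Ctla4 was seen in 40.2% and 42.6% and Pdcd1 in 6.86% and 5.41%, a difference for the latter of -1.44 points (-2.69 to -0.195). With the stricter cell filter that difference was -1.16 points (-2.51 to 0.194), and without thinning the Pdcd1 shares were 17.7% and 25.2%.

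**Figure D5:**
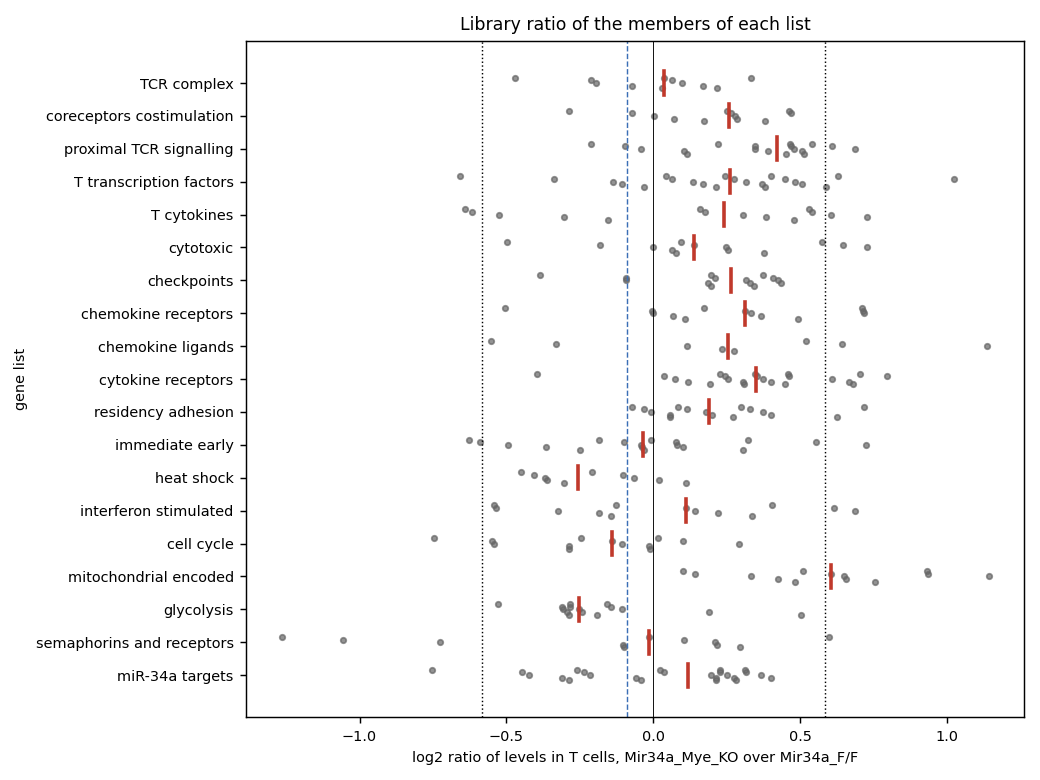
Log2 ratio of levels in T cells (Mir34a_Mye_KO over Mir34a_F/F), 1 point per measured gene of 19 lists. Red bars are list medians, dotted lines the 1.5-fold threshold and the dashed blue line the median of all genes, -0.09. The mitochondrial list (0.61) and the proximal receptor signalling list (0.42) have the highest medians, and glycolysis (-0.25) and heat shock (-0.26) the lowest.

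Genes of cell state gave smaller or shared differences. All 13 mitochondrially encoded genes were above 0 and 7 passed the fold upward, beside 1.62% of all genes, with a median of 0.61 in T cells and 0.66 in the other types. Of 15 glycolysis genes 13 and of 10 heat shock genes 8 were below 0, beside 5528 of all 9231 genes, with medians of -0.25 and -0.26 and 0 past the fold, beside 8.87% downward of all genes. Among 18 immediate early genes, which switch on within minutes of stimulation or of tissue handling, Nr4a3 passed upward at 2.86 and 4.72 (0.72, 0.66 to 0.79) and Fos (5.88 and 3.81, -0.63) and Atf3 (3.29 and 2.18, -0.59) downward, beside 1.62% and 8.87% of all genes. That list's median was -0.03 and turned to 0.06 with the totals that leave out immunoglobulin, mitochondrial and ribosomal RNA-like genes, and to 0.01 in core T cells. Of 13 measured interferon-stimulated genes 2 passed upward and 0 downward, beside 1.62% and 8.87% of all genes, with a median of 0.11 in T cells and 0.19 in the other types. Igtp, 1 of the 2, stood at 0.352 and 0.538 (0.61), and the antiviral gene Isg15 stood at 0.667 and 0.533 (-0.32). Of 13 measured cell cycle genes Cdk1, the mitotic kinase gene, passed downward at 0.190 and 0.113 (-0.75, -1.08 to -0.41), beside 8.87% of all genes.

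Semaphorins and their receptors, guidance molecules that also act between immune cells, included 3 of 11 measured genes past the fold downward, beside 8.87% of all genes. They were Plxnb1 at 0.147 and 0.0610 (-1.26, -1.68 to -0.85), Sema7a at 0.278 and 0.134 (-1.06) and Plxnb2 at 0.418 and 0.252 (-0.73). Plxnb1 met the level minimum of 0.1 only in the library labelled Mir34a_F/F, so it had to differ to be counted. The median ratios of the 3 genes in the other types were -0.98, -0.56 and -0.27. Epithelial markers in T cells were lower in the same library, at 25.7 and 13.9 in sum, and their part in these ratios was not tested. Plxnc1, a receptor of Sema7a, passed upward at 0.580 and 0.879 (0.60), and Sema4d, which T cells are known for, stood at 1.40 and 1.62 (0.21). The list median of -0.02 over 11 genes turned to 0.16 after thinning and to 0.01 in core T cells.

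Genes known as miR-34a targets were followed in T cells, which LysM-Cre is not meant to reach. Deletion in T cells was not tested. Of 29 listed genes 24 could be measured, 14 with a ratio above 0 and 10 below, beside 3703 of all 9231 genes above 0. The 24 ratios ran from -0.75 to 0.40 with a median of 0.12. Over all genes the median was -0.09, and 0.03 over those at a level of at least 0.5. None passed 1.5-fold upward and 1 passed downward, beside 1.62% and 8.87% of all genes. It was Fosl1 at 0.228 and 0.135 (-0.75, -1.07 to -0.44). In macrophages, a target of LysM-Cre, the median was 0.13 over 23 genes, or 0.30 over summed UMIs, beside -0.06 over all genes there, and 1 gene passed upward, beside 1.83% of all genes measured there. In neutrophils the median was 0.15 over 22 genes beside -0.15 over all genes there, 5 passed upward and 1 downward, beside 5.55% and 13.5% of all genes there. How the list differed between cell types was not tested. Among its members in T cells, the survival gene Bcl2 stood at 1.83 and 2.22 (0.28), Cdk6 at 1.73 and 2.23 (0.37), Foxp1 at 4.51 and 5.28 (0.23) and Notch1 at 0.488 and 0.559 (0.20).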

How the data were processed

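The deposited expression table held 32291 genes by 38883 cells of 2 libraries, 1 per genotype, as values that the authors had scaled to UMIs per 10000 in each cell and turned to the natural log after adding 1, per the study's methods with Seurat. Reads had been aligned with Cell Ranger 7.2.0 to mm10, per the submitters' processing notes. Doublets had been removed by the authors with Scrublet, and no second caller was run here. The log was inverted, and each cell's values were divided by its smallest value above 0, which was taken as 1 UMI. This gave whole UMIs in 96847573 values with a largest deviation of 1.49e-10. The UMI totals of cells were sums of these counts and matched the scale of 10000 to a largest relative deviation of 7.99e-15. In all, 147109016 and 193133086 UMIs were recovered, of which T cells held 13409799 and 23977284. Cell types were those of the deposited annotation.

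Levels were means over cells of UMIs per 10000. The ratio was log2 of Mir34a_Mye_KO over Mir34a_F/F for genes with a level of at least 0.1 in either library and at least 1 UMI in both. Its 95% interval rested on the effective number of UMIs (the mean squared over its Poisson variance). Shares had exact binomial intervals. All intervals cover counting error only and say nothing of the spread between mice, and no p-value was computed. The intervals were run on counts simulated with Poisson error and 1 rate per gene for all T cells of a library. That is the error they assume, so the run does not test them against spread between cells. Genes past 1.5-fold were counted as a description. T cells were clustered with Seurat 5.3.0 in R 4.3.3 (2000 variable genes, integration over libraries, 30 dimensions, resolution 0.5). Clusters took a name where at least 3 fixed markers were detected the mean log2 fold of the list was at least 1 and more of the cluster's top 10 genes came from that list than from the others, except that lists of other cell types gave no name, limits set after the clusters were seen, as was the minimum of 5 other types. Other steps used Python 3.11.15, numpy 2.4.6, scipy 1.17.1, pandas 2.3.3 and matplotlib 3.10.9.

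Named were the markers, the 15 genes with the largest lead among those detected in at least 10% of T cells, the 10 genes in each direction with the largest ratio or difference from the other types among those detected in at least 25% of T cells, the 5 leading genes of clusters and members of the 19 functional lists (any past 1.5-fold, the 4 with the highest level and members of the immune lists). Members and lists were chosen with earlier results of these data known. Alternatives were thinning to 1000 UMIs, summed UMIs, totals that omit 379 genes (immunoglobulin, mitochondrial, ribosomal RNA-like), stricter filters (500 mRNAs, 10% mitochondrial), a level of 0.5, a pseudocount of 0.1, T cells with a marker UMI and, added after the data were seen, core T cells and cells without shared barcodes. Promoter and microRNA sequences were taken from RefSeq. Some genes that these rules name are not reported here.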

Additional observations from a re-analysis of the deposited data

Results flagged for a closer look

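The inhibitory receptor gene Ctla4 differed between the libraries in opposite directions in a pair of clusters, each with at least 100 UMIs of it in both libraries. In cycling-like cells it stood at 8.42 UMIs per 10000 in the library labelled Mir34a_F/F and 12.7 in the library labelled Mir34a_Mye_KO, a log2 ratio of 0.59 (0.42 to 0.76). In CD8 T-like cells it stood at 3.54 and 2.25, a log2 ratio of -0.65 (-0.99 to -0.31). Over all T cells the ratio was 0.18.

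The granzyme gene Gzma did so as well. Gamma-delta T-like cells had 2.20 and 4.85 UMIs per 10000, a log2 ratio of 1.14 (0.90 to 1.39), and cycling-like cells 7.17 and 2.62, a log2 ratio of -1.46 (-1.67 to -1.24), while the ratio over all T cells was 0.09. The cycling-like cluster held 66 and 67 cells and its mix of lineages was not resolved. The intervals cover counting error only, and with 1 library per genotype neither difference between clusters was tested.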

How the results depend on the processing

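Of 208 values of the main results under alternative settings, 184 stayed within the limits of the main value, 23 moved and 1 changed sign from a main value whose interval lay off 0. That was the difference in T-cell share, which became 0.830 percentage points under the stated filter and was -5.08 without epithelial cells. Thinning to 1000 UMIs gave a log2 marker lead of 3.28 in the library labelled Mir34a_F/F and 316 higher genes. Without thinning the differences in lineage shares were 18.2 points for Cd4, 1.07 for Cd8a, 1.03 for Trdc and 7.52 for Foxp3. The Cd8a difference, whose main interval held 0, thereby changed sign. Of shares not counted among the 208, those of Cd3e (from -7.43 to 7.58 points), Pdcd1 (-1.44 to 7.50) and Areg (-2.73 to 10.1), with main intervals off 0, did so too, and list medians near 0 changed sign as given above. Leading genes numbered 77 at a log2 fold of at least 2 and 123 at a level of at least 0.5. Higher genes numbered 265 with totals that omit the immunoglobulin, mitochondrial and ribosomal RNA-like groups. A level of at least 0.5 left 85 higher and 238 lower genes and raised the median log2 ratio by 0.116, and a pseudocount of 0.1 left 80 and 242. The median of miR-34a targets in macrophages was 0.30 over summed UMIs and 0.22 with those totals. With the stricter cell filter the log2 ratios of summed markers were -0.98 (epithelial), -0.95 (neutrophil) and 0.94 (plasma cell). They were -0.94 (epithelial) and -0.77 (neutrophil) in core T cells, and -0.75 (neutrophil) and 1.03 (plasma cell) in T cells with a marker UMI. The cause was not tested beyond the construction of each setting. Among 80 named genes 97 of 560 alternative values left the main interval, and 0 changed sign where that interval lay off 0. No paired analysis was possible because each genotype had 1 library, and for the same reason no replicate could be left out. Depth limits the lineage shares, since a thinned cell keeps 1000 UMIs.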

Other observations

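Transcripts from the engineered loci were counted in T cells as separate features of the table. The primary transcript of Mir34a gave 10 UMIs in T cells of the library labelled Mir34a_F/F and 17 in those of the library labelled Mir34a_Mye_KO. The Cre feature gave 10 and 6 UMIs and Lyz2, the gene whose locus drives it, 57 and 27. In T cells the intervals for the first 2 features overlapped between the libraries. By the feature names alone, the whole-library counts of both, given above, went against the labels, but the sequence behind them was not given. The features for the hairpin, the stem-loop and the mature form of miR-34a had 0 UMIs, with an exact 95% upper limit of 3.69 counts each.

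T cells held a smaller share of the UMIs than of the cells, 9.12% and 12.4% of all UMIs beside 15.2% and 14.3% of all cells. Some genes read in T cells were mainly read elsewhere: T cells ranked 7 of 11 types in the level of Tnf, held 20.9% and 17.9% of the Il10 UMIs and 44.9% and 37.1% of those of Gzmb, for which basophils had higher levels, 17.3 and 8.54 UMIs per 10000.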
